A study of Mus musculus with 15 samples.

Results

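The genes described here code for the proteins of the cytosolic ribosome. Of the 16330 rows of the deposited table of normalized counts, 84 were chosen by name: symbols that start with Rpl or Rps and a number, with Rplp0, Rplp1, Rplp2 and Rpsa. Entries for S6 kinases (8 rows starting with Rps6k) and for pseudogenes (28 rows with -ps in the symbol) were left out. The members hold 46 genes of the large subunit, stalk proteins included, 30 of the small subunit and 7 paralogs or copies (Rpl3l, Rpl7l1, Rpl22l1, Rpl36al, Rps27l, Rps3a3 and Rps4y2). The name rule also took Rps19bp1, which codes for a protein that binds RPS19 and is no part of the ribosome. GENCODE annotates Rps3a3 as a processed pseudogene and places Rps4y2 under the name Rps4l, as a transcribed processed pseudogene.

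The ribosome translates mRNA in a small subunit that reads the codons and a large subunit that joins the amino acids. Each subunit is a core of ribosomal RNA with many proteins, made in near equal numbers, and hepatocytes need large amounts because they export most plasma proteins. The mRNAs of these proteins typically start with a run of pyrimidines, the TOP motif, through which the kinase mTORC1 and the RNA-binding protein LARP1 control their translation and stability.

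Liver RNA was sequenced in 15 libraries, all collected 6 h after a gavage. The control livers carried luciferase, an enzyme of light production, and received water (5 libraries, M1 to M5) or ethanol (3 libraries, M10 to M12). The other livers carried LbNOX, a bacterial oxidase that converts NADH to NAD+ and water, and received water (4 libraries, M6 to M9) or ethanol (3 libraries, M13 to M15). The labels give the construct as the genotype. The series' design text names wild-type or ChREBP mice instead, and the titles and the table's header were followed here. The dose of ethanol, the way the constructs were delivered, and the strain, age and sex of the mice are not given in the sources used here. Each comparison asks how the liver responds to ethanol or to LbNOX, and the difference of the ethanol effects asks whether the response depends on the construct. Whether the libraries of a group stand for different mice is not stated in the labels. The p-values therefore rest on the spread among libraries, which may be technical.

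Recovered depth was 10.6 to 23.7 M reads per library. The members took 1.29% to 1.68% of the normalized counts of a library. In each group the range of that share was 1.35% to 1.68% after water and 1.42% to 1.62% after ethanol with luciferase, and 1.33% to 1.67% after water and 1.29% to 1.43% after ethanol with LbNOX. Of the 84 members, 83 were tested, having 10 or more normalized counts in at least 3 libraries, and 80 were at or above 10 in all 15. Rps3a3 was not tested. The hepatocyte markers were high in every library, with Alb, the gene of serum albumin, at 355968 or more. Library pairs within a group had r of 0.944 to 0.970 across genes and none was duplicated.

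The genes share sequence features at their starts. RefSeq promoter sequences (GRCm38.p6, 250 bases before to 50 after an annotated start) were found for 62 members, in 74 entries. A run of at least 8 bases that are all C or T, read on the strand of the gene, lay from 50 bases before to 50 after the start in 57 of 74 entries (77%), against 11741 of all 32851 promoters (35.7%). The motif CCGGAAG, a core recognised by ETS factors, read on both strands over the whole window, was in 26 of the 74 entries (35.1%) and in 8.86% of all promoters. A match is a description of the letters and does not show that a factor binds there or where transcription starts. The windows below are 30 bases, 5′ to 3′ on the gene's strand, with the run in capitals. Rpl12, Rpl13 and Rpl10a are shown because they had the smallest p-values for LbNOX after ethanol, Rpl14 because its level moved apart from the others, Rplp2, Rps6 and Rps18 because the run crosses the annotated start, and Rpl13a because it lay above 0 in that comparison.
Rpl12: ggaggaggcaacggtgcaaCTTTCTTCggt
Rpl13: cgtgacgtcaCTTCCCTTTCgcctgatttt
Rpl10a: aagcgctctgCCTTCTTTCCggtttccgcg
Rpl14: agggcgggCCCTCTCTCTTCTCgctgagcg
Rplp2: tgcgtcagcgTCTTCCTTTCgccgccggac
Rps6: ggaagtcgggCCTCTTTTTCgtgacgcctc
Rps18: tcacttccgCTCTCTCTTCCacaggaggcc
Rpl13a: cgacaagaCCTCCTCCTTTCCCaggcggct
The windows lie at chr2:32961732-32961761 (Rpl12, plus strand), chr8:123102324-123102353 (Rpl13, plus), chr17:28328572-28328601 (Rpl10a, plus) and chr9:120571501-120571530 (Rpl14, plus). The others lie at chr7:141447636-141447665 (Rplp2, plus), chr4:86857349-86857378 (Rps6, minus), chr17:33955647-33955676 (Rps18, minus) and chr7:45128722-45128751 (Rpl13a, minus). The runs ranged from 8 bases in Rpl12 to 14 in Rpl14 and Rpl13a. Counted from the first transcribed base of the annotation, the run began at 40 in Rpl12, 18 in Rpl10a and 3 in Rpl13a, and before the start in Rpl13 (-16), Rpl14 (-8), Rplp2 (-5), Rps18 (-2) and Rps6 (-1). The genes lie apart, on 19 chromosomes, with the most on chromosome 7 (14 genes). Most of their transcripts are short: the median length was 725.5 bases and 68 of 84 were under 1000 bases. The total over all exons of a gene is a different measure, at 2053 bases for Rpl10 against 723.5 by transcript. The members' transcript lengths were not compared with those of all tested genes by the same measure.

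Most members were abundant, and their levels per transcript length ranged widely. The median over the 83 tested members was 3560 normalized counts per kb, as the mean of 15 libraries. The highest were Rpl10, which sits near the tRNA sites and is added late in assembly, at 12265 per kb, Rps2 at 11564 per kb and Rplp1, a protein of the stalk that recruits elongation factors, at 10671 per kb. Among the lowest tested members were Rpl3l, the paralog of Rpl3 that is made mainly in muscle and heart, at 5.68 per kb, and Rpl37 at 20 per kb. Rps26 (46.6 per kb), Rps7 (61.7) and Rpsa (168), all proteins of the small subunit that every ribosome carries, were also far under the median. These low values are uncertain. Ribosomal protein genes have many near-identical processed copies in the genome, and whether reads of these members went to copies was not tested. The entry Rps26-ps1 had a mean of 1.14 normalized counts, beside 31.7 for Rps26.

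Several members have a second entry, named in capitals or with -ps, so their values are uncertain. How reads were divided between such entries was not tested. The row Rpl24 held 324 to 468 normalized counts, while a row named RPL24, outside the rule by its capitals, held 2359 to 3702. Rpl24 took 8.04% to 16.4% of the sum of the pair. Rpl14 was at 548 in M1 and 601 in M13, and at 1179 to 1621 in the other 13 libraries. Its pseudogene entry Rpl14-ps1 was at 349 in M1 and at 0 in M13. Rps23 had a mean of 258 and Rps23-ps of 337, and Rpl10a-ps1 ranged from 0 to 1007 beside Rpl10a at 1288 to 2419.

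**Figure D1:**
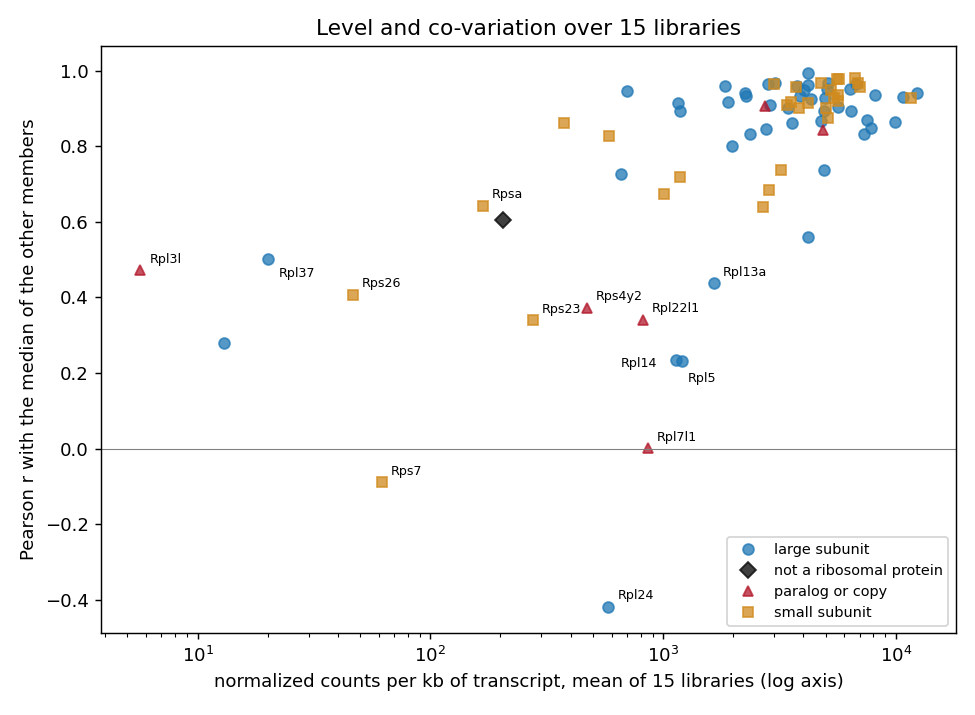
Level and co-variation of the 83 tested members. The x axis (log scale) gives normalized counts per kb of transcript, mean of 15 libraries, and the y axis Pearson r with the per-library median of the other members on the log2 scale; most members lie above 0.8 and the named ones, all with r under 0.5 or a level under 200 per kb, lie apart.

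The members moved together from library to library. On the log2 scale 44 of 83 had r above 0.9 with the median of the others over the 15 libraries, and 60 had r above 0.8. The median r was 0.902, against 0.0645 for the 9429 other genes with a mean of 100 or more, of which 3.34% exceeded 0.8. The libraries share their depth, scaling and tissue composition, so the r describes these libraries and carries no p. The median SD within groups was 0.182 for the members on the log2 scale and 0.283 for all tested genes. Rps6, the target of the S6 kinases, followed the median with r of 0.98, and so did Rps15, which lies at the decoding site. The 12 members under 0.5 held members at low counts or with a second entry (Rpl24 at -0.42, Rps7 at -0.09, Rpl14 at 0.23). They also held Rpl5, which carries the 5S RNA, at 0.23, Rpl13a at 0.44 and the paralogs Rpl7l1 (0.00) and Rpl22l1 (0.34). The other genes most like the median were Naca, a subunit of the complex that shields nascent chains (0.977), RPL24 (0.964), Apoc4, an apolipoprotein (0.951), 2810428I15Rik (0.947) and Hint1, a nucleotide hydrolase (0.946), of 9429 compared.

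The median of the 83 members, centred per gene on the log2 scale, differed most between water libraries. After water it was 0.01, 0.03, -0.17, 0.03 and 0.34 in M1 to M5 with luciferase and 0.01, -0.10, -0.26 and 0.39 in M6 to M9 with LbNOX. After ethanol it was 0.07, 0.15 and 0.12 in M10 to M12 with luciferase and -0.09, -0.17 and -0.33 in M13 to M15 with LbNOX. M5 and M9 stood above all other libraries, M8 and M15 were lowest, and the LbNOX ethanol libraries lay under all 3 luciferase ethanol libraries. Their range of -0.33 to -0.09 overlapped that of the LbNOX water libraries, -0.26 to 0.39, with M15 under all 4 of these. The SD of the library medians was 0.185 after water and 0.0392 after ethanol with luciferase, and 0.276 after water and 0.119 after ethanol with LbNOX.

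Other sets moved with the members across libraries. The 75 tested nuclear subunits of oxidative phosphorylation had medians of 0.36 in M5, 0.53 in M9, -0.57 in M3, -0.31 in M8 and -0.35 in M15. The 1633 other genes with transcripts under 1000 bases had 0.12 in M5, 0.19 in M9, -0.18 in M3, -0.11 in M8 and -0.13 in M15, and 1640 genes over 4000 bases had -0.17, -0.18, 0.12, 0.12 and 0.12. The 10 transcripts of the mitochondrial genome were at 0.38 in M5, 0.41 in M9 and -0.43 in M15. The summed hepatocyte markers were 733388 to 928425 after water and 780996 to 960887 after ethanol with luciferase, and 567349 to 1050880 after water and 654554 to 803104 after ethanol with LbNOX, with a median of -0.57 in M8. The Kupffer cell markers, for resident macrophages, had a median of 1.57 in M15 and -0.46 to 0.71 elsewhere. The endothelial markers were at 0.81 in M3, 0.85 in M8 and 0.54 in M15, and the neutrophil markers at 2.61 in M13. Summed Kupffer markers were 749.9 to 925 after ethanol with luciferase and 876 to 1669 with LbNOX. After water they were 861 to 2180 with luciferase and 925 to 1884 with LbNOX, ranges that reach above both ethanol groups. Cd5l, the highest of the Kupffer list, ranged from 475 to 1685 over the libraries. Summed neutrophil markers were 155 to 267 after ethanol with luciferase and 177 to 664 with LbNOX. After water they were 109 to 241 and 112 to 292. Timd4 of the Kupffer list was at 0 in 2 libraries and S100a8 and Retnlg of the neutrophil list in 1 each. In bulk liver, fewer cells of a type and less RNA per cell cannot be told apart. The part of these sets in the differences below was not tested.

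**Figure D2:**
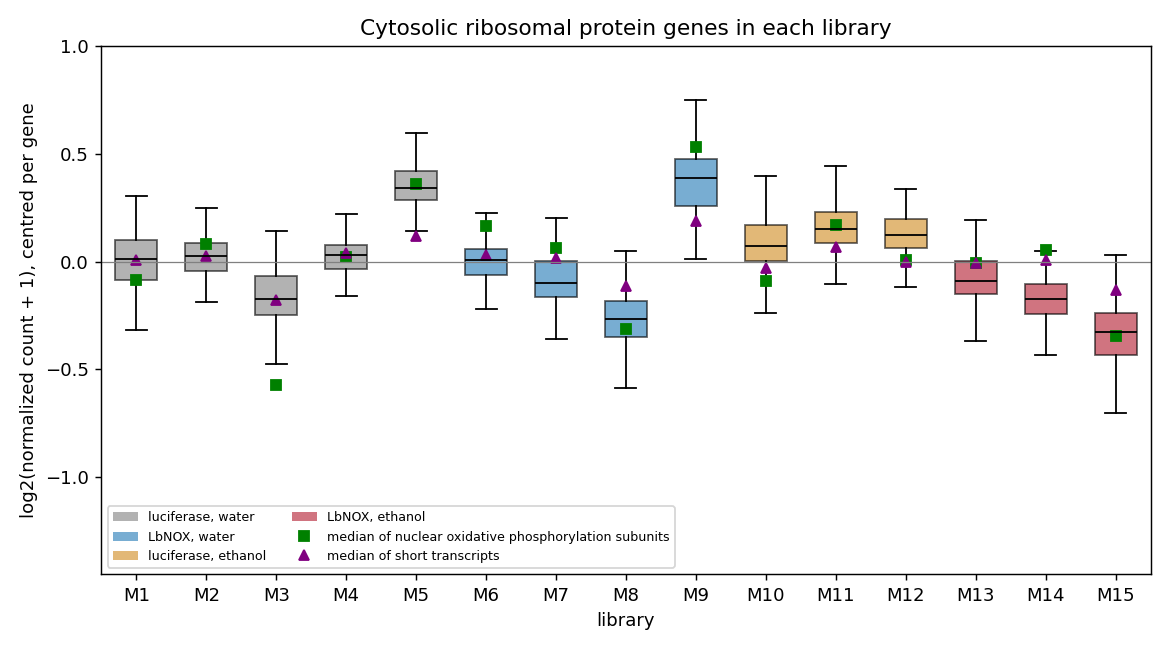
Ribosomal protein genes in each library. Boxes give the quartiles of 83 members (log2 of normalized count plus 1, centred per gene; whiskers reach to 1.5 interquartile ranges, points beyond are not drawn), squares the median of nuclear oxidative phosphorylation subunits and triangles that of other genes under 1000 bases; M5 and M9 are highest and M15 lowest.

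After ethanol, ribosomal protein genes were lower with LbNOX than with luciferase, by small steps in nearly all members. The log2 difference lay under 0 in 81 of 83 members, with a median of -0.32 and quartiles of -0.40 and -0.24, while the median over all 13570 tested genes was 0.00 and 49.6% lay under 0. The 3 LbNOX libraries lay under all 3 luciferase libraries in 58 of 83 members, and in 15.4% of all genes. The members moved together from library to library (median r of 0.902), so these counts are not 83 separate results. They rest on 3 libraries against 3, and library medians of the members ranged from -0.17 to 0.34 within luciferase water. Limma called 2 members, both lower, at an adjusted p below 0.05, where 6.06% of all genes were called in either direction. Unadjusted p-values were below 0.05 for 16 members, all lower, where 21% of all genes were. The large and small subunits had the same median, -0.33, and the 6 tested paralogs and copies had -0.12. The exceptions above 0 were Rpl13a and Rpl7l1.

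The count of calls rested on single libraries. Leaving out M1, M2, M6, M7, M11, M13 or M14 left 1 call, Rpl12, leaving out M10, M12 or M15 left 0, and leaving out M9 gave 4, among them Rpl10a, Rpl12 and Rpl13. Without both M5 and M9, the water libraries that stood highest, 9 of 82 members were called, all lower, where 6.64% of all genes were, among them Rpl10a, Rpl12, Rpl13, Rpl32, Rps13, Rps15, Rps18 and Rps27a. Without both M3 and M8, 4 were called, all lower, where 8.80% of all genes were. Both pairs were chosen after the data were seen. Water libraries do not enter this difference, so leaving them out changes the estimated spread and the genes tested, not the difference itself. The added calls are therefore no separate support. The median stayed between -0.37 and -0.26 when any 1 library was left out.

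Rpl12, a protein at the base of the stalk where translation factors bind, fell. Its normalized counts after ethanol were 1003, 1005 and 1016 with luciferase and 729, 595 and 493 with LbNOX. The groups did not overlap, and the 3 luciferase values lay closer together than those of any other group. After water it was at 993, 846, 823, 771 and 823 with luciferase and at 854, 717, 671 and 960.1 with LbNOX, so the LbNOX ethanol libraries also included the lowest values of the series. The means were 1008 ± 6.68 and 606 ± 118 normalized counts (SD, n = 3 each), a log2 difference of -0.75 (SE 0.16, limma adjusted p = 0.0131). The gene lies at chr2:32961559-32965345 (GRCm38). Its adjusted p passed 0.05 without M10 (0.0506), M12 (0.0506) or M15 (0.0704), and the difference without M15 was -0.61.

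Rpl13, another protein of the large subunit, fell as well. Its values after ethanol were 4201, 4272 and 4429 with luciferase and 3309, 3109.6 and 2816 with LbNOX, without overlap. After water they were 3831, 3944, 3782, 3581 and 4804 with luciferase and 3723, 3468, 3435 and 4529 with LbNOX, all above those of the LbNOX ethanol libraries. The means of 4301 ± 117 and 3078 ± 248 (SD, n = 3 each) gave a log2 difference of -0.49 (SE 0.14, limma adjusted p = 0.0484). The call was at the edge: edgeR gave an adjusted p = 0.0554, and limma's rose to as much as 0.186 when M15 was left out. The gene lies at chr8:123102350-123105244.

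Other members with small p-values did not pass. Rpl10a, the protein of the stalk past which spent tRNA leaves, was at 2019, 2419 and 2127 with luciferase and 1619, 1303 and 1400.2 with LbNOX after ethanol. Its difference was -0.60 (SE 0.17, limma adjusted p = 0.0537), the groups did not overlap, and a second entry, Rpl10a-ps1, stands beside it. Rps13, a protein of the small subunit, was at 1151, 1118 and 1494 with luciferase and 775, 939 and 669.9 with LbNOX, again without overlap (-0.66, SE 0.21, adjusted p = 0.0869). DESeq2 called 5 members on recovered reads, among them Rpl12, Rpl13, Rpl10a and Rps13, and edgeR called Rpl12 only. Over all 13570 tested genes DESeq2 called 1349 and edgeR 755 in this comparison. With each of these tools the share of members called was below that of all genes.

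**Figure D3:**
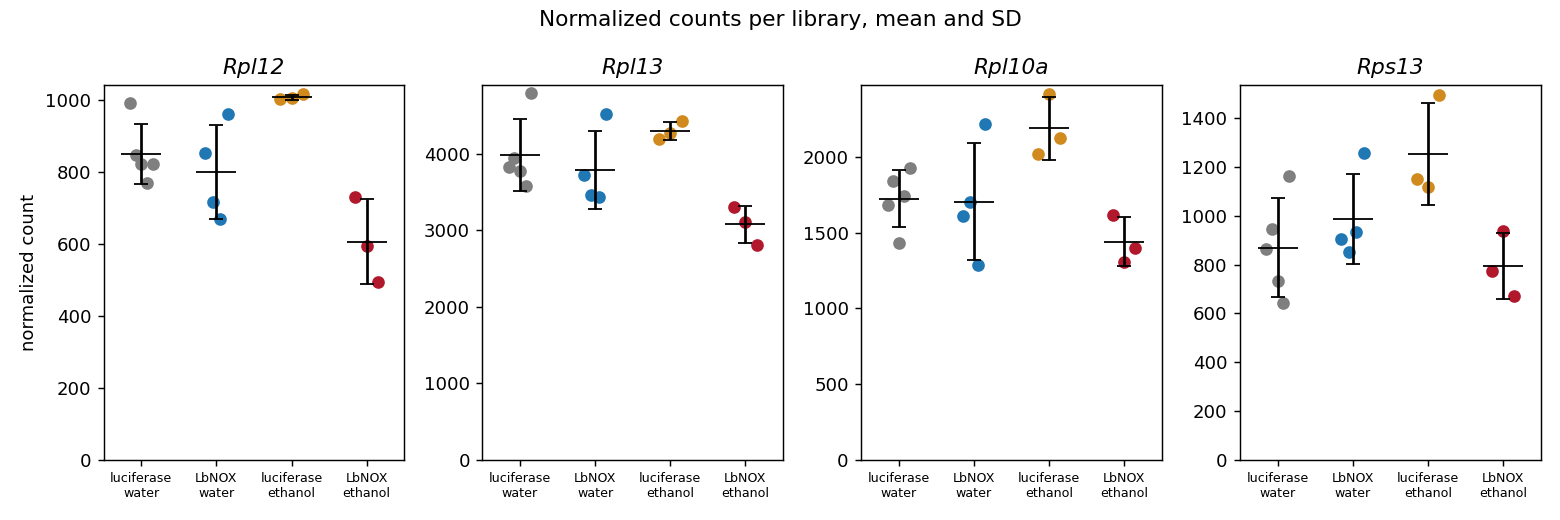
Normalized counts of Rpl12, Rpl13, Rpl10a and Rps13 in each library. Points are libraries, bars the mean and SD of a group (n = 5, 4, 3 and 3 from left to right); in each gene the 3 LbNOX ethanol libraries lie under the 3 luciferase ethanol libraries.

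Among the members with known special roles none passed the test for LbNOX after ethanol. Rplp0, the anchor of the stalk, was at 7402, 7038 and 6606 with luciferase and 5986, 5874 and 5969.6 with LbNOX (-0.24, SE 0.12, adjusted p = 0.267). The stalk proteins Rplp1 and Rplp2 had -0.28 and -0.21. Rpl3, near the peptidyl transferase centre, had -0.24 and Rpl10 -0.24. Rpl5 and Rpl11, which carry the 5S RNA and can bind MDM2, had -0.28 and -0.40. Rpl22, whose loss is known to affect lymphocytes, had -0.47 and its paralog Rpl22l1 -0.05. Rpl38, known for effects on selected mRNAs, had -0.22, Rpl39 of the exit tunnel -0.37 and Rpl41, the smallest protein of the ribosome, -0.17. Rpl36a and its copy Rpl36al had -0.35 and -0.29.

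In the small subunit, Rps6 was at 6292, 6282 and 6417 with luciferase and 5509, 5159 and 4673 with LbNOX after ethanol. The 2 groups did not overlap, and the difference was -0.31 (SE 0.15, adjusted p = 0.249). Rps3, at the entry of the mRNA channel, had -0.28 and Rps4x, the X-linked copy of RPS4, -0.34. Rps14 and Rps19, known from anaemias in which ribosomes fail to form, had -0.27 and -0.38, and Rps15 had -0.46. Rps25, used by some viral RNAs, had -0.45, Rps27 -0.72 (SE 0.46) and its paralog Rps27l -0.12. Rps27a, made as a fusion with ubiquitin, had -0.43, and Rps28 and Rps29 -0.28 and -0.29. Rpsa, which is also known as a laminin receptor, was at 277, 304 and 295 against 333, 299.9 and 210.4, and its groups overlapped (-0.08).

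The values above 0 were small. Rpl13a, known as part of the interferon-induced GAIT complex in human cells, was at 685, 792 and 651 with luciferase and 771, 835 and 785 with LbNOX after ethanol. The groups overlapped and the difference was 0.17 (SE 0.17, adjusted p = 0.609). Rpl7l1 had 0.01. Rpl3l had the largest fitted difference, -1.68 (SE 0.78, adjusted p = 0.236), from 15.7, 7 and 16.2 normalized counts against 4.15, 2.95 and 2.42, which are too few reads for a firm value. Rpl37, also listed at few counts, had -0.20 (SE 0.56).

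**Figure D4:**
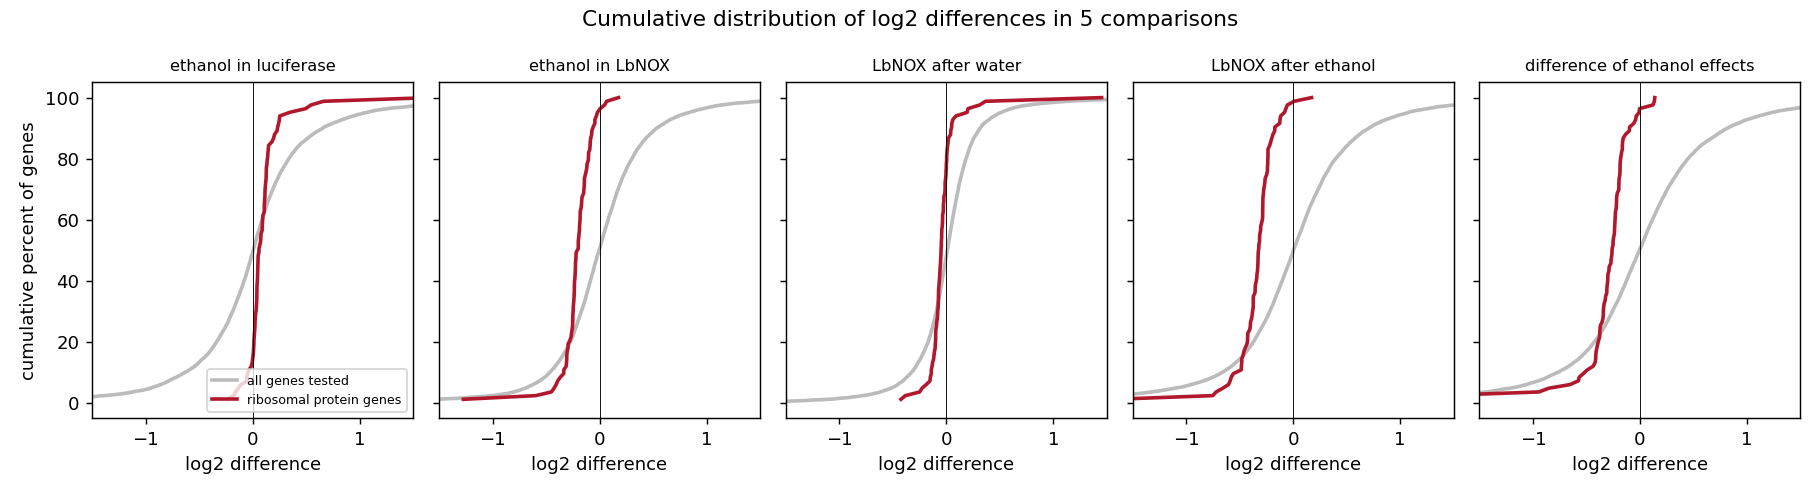
Cumulative distribution of log2 differences in 5 comparisons, for 83 ribosomal protein genes and for all 13570 tested genes. The member curve lies left of 0 for LbNOX after ethanol (81 of 83 under 0), ethanol in LbNOX (79 of 83) and the difference of ethanol effects (80 of 83); the x axis is cut at -1.5 and 1.5.

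In luciferase livers, no ribosomal protein gene passed the test between ethanol and water. The median log2 difference was 0.06 over 83 members, 71 of them above 0, and 0.01 over all genes, of which 50.6% lay above 0. Limma called 0 members where 7.75% of all genes were called; 3 members had an unadjusted p below 0.05, all higher, where 21.1% of all genes did. EdgeR and DESeq2 also called 0, each with 2 members at an unadjusted p below 0.05. The smallest p-values were those of Rps13 (0.55, SE 0.19, adjusted p = 0.104), Rpl3l (1.66, adjusted p = 0.187) and Rpl10a (0.35, adjusted p = 0.213). Rps13 was at 864, 946, 733, 643 and 1164 after water, and the value in M5 lay within the range of 1118 to 1494 after ethanol. Without M5, Rps13 was called as higher (0.66, adjusted p = 0.0402), and the median of the members was 0.14. The median was 0.11 without M10 and 0.01 without M3. The ethanol libraries lay above all water libraries for Rpl10a and Rpl12, 2 of 83 members, where 8.32% of all genes did so.

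In LbNOX livers, ethanol libraries lay lower than water libraries by about the spread between libraries. The median was -0.20, with 79 of 83 members under 0, and 0.00 over all genes, of which 50.5% lay under 0. The nuclear subunits of oxidative phosphorylation had nearly the same median, -0.19, with 73 of 75 under 0. Mitochondrial ribosomal proteins had -0.17 (60 of 76 under 0), proteasome core subunits -0.12 (17 of 19) and the mitochondrial genome -0.12 (9 of 10). Limma called 0 members and 0.00737% of all genes. At an unadjusted p below 0.05 there were 3 members, all lower, where 11.6% of all genes passed; edgeR called 0 with 3 members below 0.05 and DESeq2 0 with 5. The 3 were Rps4y2 (-0.60, adjusted p = 0.197), Rpl12 (-0.41, adjusted p = 0.310) and Rpl13 (-0.29, adjusted p = 0.402). Rps4y2 was at 492, 453, 493 and 552 after water and 419, 296 and 284 after ethanol. All 3 ethanol libraries lay under all 4 water libraries for Rpl13, Rps4x and Rps4y2, 3 of 83 members, where 5.49% of all genes did so. Without M9, the highest library, the median was -0.09, and without M8, the lowest water library, it was -0.31.

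After water, no member passed the test between LbNOX and luciferase livers. The median was -0.05, with 65 of 83 members under 0, and 0.01 over all genes, of which 48.2% lay under 0. Limma called 0 members and 0 genes in all (0%). No member had an unadjusted p below 0.05, where 3.24% of all genes did, and edgeR and DESeq2 likewise called 0 with 0 members below 0.05. The smallest p-values were for Rps4y2 (0.31, SE 0.16), Rps23 (-0.38, SE 0.23) and Rpl5 (-0.25, SE 0.16). The median turned to 0.04 without M8 and 0.02 without M5, and to -0.17 without M9, -0.10 without M3 and -0.02 without M7, so its sign rested on single libraries.

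The ethanol effect was lower in LbNOX than in luciferase livers by a median of 0.26 on the log2 scale (-0.26), with 80 of 83 members under 0. Over all genes the median was -0.01 and 50.5% lay under 0. The shift was not particular to the members: nuclear subunits of oxidative phosphorylation had a median of -0.25, with 72 of 75 under 0. The mitochondrial genome had -0.24 (10 of 10 under 0), mitochondrial ribosomal proteins -0.14 (63 of 76) and proteasome core subunits 0.07 (5 of 19). Limma called 0 members where 1.67% of all genes were called, and 5 members had an unadjusted p below 0.05, all lower, where 14.6% of all genes did. EdgeR and DESeq2 called 0, with 4 and 5 members below 0.05. Rpl12 had the smallest p (-0.65, SE 0.20, adjusted p = 0.137), followed by Rps13 (-0.85, SE 0.28, adjusted p = 0.150) and Rpl10a (-0.57, SE 0.22, adjusted p = 0.245). Thus no member was shown to respond to ethanol differently in the 2 constructs. This comparison shares all its libraries with the others, and LbNOX after ethanol shares the luciferase ethanol libraries with ethanol in luciferase, so their values are set side by side only. The median was -0.14 without M9, -0.20 without M15 and -0.35 without M8.

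**Figure D5:**
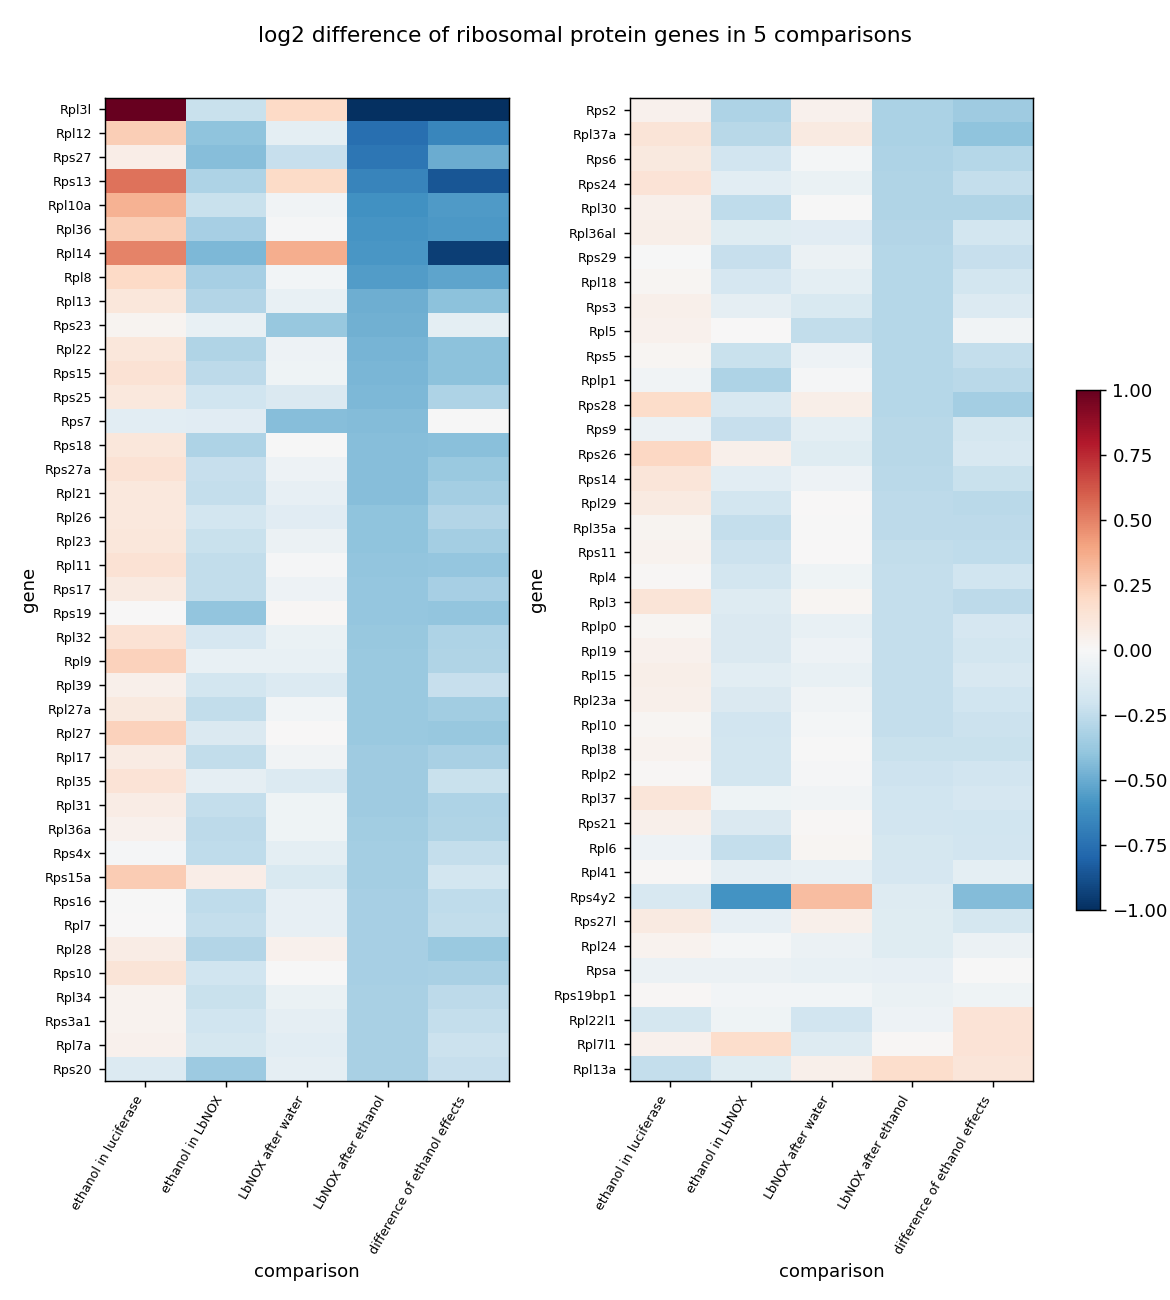
Log2 difference of 81 of the 83 tested members in 5 comparisons, ordered by LbNOX after ethanol from the top of the left panel. Blue is lower and red higher, and colours end at -1 and 1; the column of LbNOX after ethanol is blue in all but Rpl13a and Rpl7l1, and ethanol in luciferase is pale.

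A ribosomal protein outside the name rule had a difference of similar size. Fau, made as a fusion with the small subunit protein RPS30, was at 3127, 3795 and 3488 with luciferase and 2994, 2857 and 1999 with LbNOX after ethanol (-0.43, SE 0.25, adjusted p = 0.349). It passed the test in none of the 5 comparisons by limma, edgeR or DESeq2, and had no unadjusted p below 0.05.

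Factors that make and run ribosomes were described from lists chosen with earlier results of these data known. After ethanol, 7 of 40 ribosome biogenesis genes were lower with LbNOX and 0 were higher, with a median of -0.21, where 6.06% of all genes were called in either direction. Gnl3, a nucleolar GTPase, was at 703, 742 and 833 with luciferase and 343, 428 and 345 with LbNOX (-1.03, SE 0.19, limma adjusted p = 0.00648). The rRNA methyltransferase Nop2 (-0.92, adjusted p = 0.00989) and the processome subunit Wdr43 (-0.87, adjusted p = 0.0173) fell too. Both calls were lost without M12 or M15, and that of Wdr43 also without M13. Of 19 translation factors and other TOP mRNAs, 1 was lower, with a median of -0.15: Pabpc1, the poly(A)-binding protein (-0.62, adjusted p = 0.0471), a call lost when any 1 of M1, M2, M6, M7 and M10 to M15 was left out, and not made by edgeR. Npm1, a nucleolar chaperone, had -0.54 (adjusted p = 0.0787), and Eef1a1, Eef2 and Tpt1 had -0.20, -0.20 and -0.13, which turned to 0.07, 0.02 and 0.09 under quantile normalization. Of 30 other translation factors 2 were lower, Eif2b3 of the exchange factor for eIF2 (-0.90, adjusted p = 0.00963) and Eif2s2 of eIF2 itself (-0.49, adjusted p = 0.0336), with a median of -0.20. The shares called in these last 2 lists are near that of all genes. The call of Eif2b3 was lost without M12, and that of Eif2s2 when any 1 of M6, M7, M10, M11, M12, M14 and M15 was left out.

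Among the regulators of these mRNAs, 1 of 24 tested was called higher and 5 lower with LbNOX after ethanol, where 6.06% of all genes were called in either direction. Mtor, the kinase of mTORC1, was at 3660.0, 3699 and 3730.3 with luciferase and 2055, 1859 and 2087 with LbNOX after ethanol (-0.89, SE 0.14, adjusted p = 0.00260). After water it was at 1711 to 2466 with luciferase and 1773 to 2288 with LbNOX, so the luciferase ethanol libraries stood above the other 12. Larp1 was at 5045, 3846 and 4624 against 2988, 3242 and 3030.1 (-0.54, SE 0.12, adjusted p = 0.0194), and its call was lost without M10, M12, M13 or M15. Mxd1, an antagonist of MYC, was at 64.1, 68.8 and 46.1 against 210.3, 154 and 221 (1.70, SE 0.20, adjusted p = 0.000350), and Max, the partner of MYC, had -0.75 (adjusted p = 0.00332). Ddit4, an inhibitor of mTORC1, was lower too (-0.83, SE 0.20, limma adjusted p = 0.0272). In luciferase livers ethanol gave the reverse directions: Mtor (0.95, adjusted p = 0.000421) and Larp1 (0.57, adjusted p = 0.00511) rose, and Mxd1 fell (-1.30, adjusted p = 0.000506). In that comparison 5 of 24 were called higher and 1 lower, where 7.75% of all genes were called in either direction. These 2 comparisons share the luciferase ethanol libraries. For Mtor and Mxd1 the difference of ethanol effects itself passed the test (-1.01, adjusted p = 0.0130, and 1.64, adjusted p = 0.00810), and for Larp1 it did not (-0.44, adjusted p = 0.195).

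Other complexes are given for LbNOX after ethanol, where 21% of all genes had a limma unadjusted p below 0.05 and 49.6% lay under 0. Of 76 genes of mitochondrial ribosomal proteins 0 were called by limma, edgeR or DESeq2. By limma 8 were lower and 1 higher at an unadjusted p below 0.05, and the median was -0.13, with 60 of 76 under 0. Of 75 nuclear subunits of oxidative phosphorylation limma and edgeR called 0 and DESeq2 1, with 1 lower and 1 higher at an unadjusted p below 0.05 by limma. Their median was -0.14, with 61 of 75 under 0. Of 19 proteasome core subunits 0 were called by any of the 3 tools, 0 had an unadjusted p below 0.05, and the median was 0.02, with 9 of 19 under 0. Beside the median of the cytosolic ribosomal protein genes, -0.32, the 10 transcripts of the mitochondrial genome, a list for RNA quality, had a median of -0.31 with 10 of 10 under 0. The red blood cell markers had -0.39 with 5 of 5 under 0 and the hepatocyte markers -0.24 with 6 of 7. Limma, edgeR and DESeq2 called 0 genes of these 3 lists, with 0 hepatocyte, 1 red blood cell and 1 mitochondrial gene at an unadjusted p below 0.05 by each. Their part in the difference of the members was not tested.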

How the data were processed

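Liver mRNA of 15 libraries in 4 groups was sequenced from KAPA mRNA libraries (kit per the labels' protocols). Salmon 1.5.1, DESeq2 1.30.1 and the build mm10 stand in the submitters' processing notes, with no role given. The authors deposited 1 table of normalized counts per gene, a signal in which each library was divided by its own factor. Each column is headed by its group and a name from M1 to M15. Reads were recovered from the step between values, and 244950 of 244950 values (100%) lay within 0.001 of whole reads. The factor of M5 was near 1.

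Values were tested as log2(normalized count + 1) in limma 3.58.1 under R 4.3.3, with a variance trend and robust shrinkage. A gene entered when 3 or more libraries reached 10. A single fit of the 4 groups gave 5 contrasts. Benjamini-Hochberg adjustment covered all 13570 genes, and adjusted p below 0.05 was called. The plan named edgeR for whole counts; since the deposited values are scaled, limma was used, with edgeR 4.0.16 and DESeq2 1.42.0 on recovered reads as alternatives. Other alternatives were quantile and TMM scaling, filters, pseudocounts, no trend, a fit restricted to the groups of a contrast, and omission of each library in turn. Leaving out M5 with M9 or M3 with M8, and adding pseudogene entries to members, were chosen after the data were seen. The script was tested on simulated data.

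The members, the 8 lists of related genes and the 11 marker lists were chosen with earlier results of these data known. Named genes are the called members, the 3 smallest p-values per contrast, members chosen by role, the extremes of level and spread, the 3 smallest p-values among called genes of each list and the 5 genes most like the members; a few of these are not reported here. Genes were placed with GENCODE vM21 (GRCm38), and promoters come from RefSeq (GRCm38.p6).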

Additional observations from a re-analysis of the deposited data

Results flagged for a closer look

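In 6 of 76 tests within a water group, 1 library lay farther from the rest than Dixon's critical value allows, where chance alone gives about 1 in 20. The tests were of named members and, in each water group, of the median of all members. In luciferase livers after water, M5 was the outlying library each time. Rpl10 was at 11314 normalized counts in M5 and at 8478 to 8975 in the other 4. Rpl38 was at 1680.1 in M5 and at 1108 to 1264 elsewhere in the group. Rpl39 was at 1889 against 1316 to 1451. Rps15 was at 4196 against 2630.4 to 3022. Rps6 was at 7065 against 5436 to 5834. In LbNOX livers after water, Rps14 was at 4109 in M9 and at 2552 to 2784 in the other 3. M5 and M9 are the libraries with the highest median of all members, so these are not separate events. Groups of 3 libraries were not tested.

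The ethanol effect differed between the constructs, by a test of the difference itself, in 2 regulators. Mtor differed by -1.01 and Mxd1 by 1.64 on the log2 scale (LbNOX effect minus luciferase effect), with limma adjusted p of 0.0130 and 0.00810.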

How the results depend on the processing

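The number of members called for LbNOX after ethanol, 2 by limma, was 1 with edgeR, 5 with DESeq2, 1 with TMM scaling, 1 without the trend, 1 without the filter on low values and 1 with pseudogene entries added. It was 9 without M5 and M9, and 4 without M3 and M8, water libraries that enter this comparison only through the estimated spread. Leaving out 1 library at a time gave 0 to 4. For ethanol in luciferase the count of 0 became 1 without M5 and M9, and 0 to 1 with 1 library left out. Counts for the other 3 comparisons were 0 throughout. Over all genes DESeq2 called 1621 for ethanol in luciferase, 282 for ethanol in LbNOX, 18 for LbNOX after water, 1349 for LbNOX after ethanol and 633 for the difference of ethanol effects, against 1052, 1, 0, 822 and 227 by limma. The medians of the members moved by less than the spread between libraries (0.190) under every alternative. With quantile normalization the median for LbNOX after ethanol was -0.25, and Eef1a1 (0.071), Eef2 (0.017) and Tpt1 (0.094) changed sign in that comparison. With 1 library left out, 4 uncalled differences in the same comparison changed sign. They ranged from -0.74 to 0.26 for Rpl37 (positive without M10, M11 or M15), from -0.29 to 0.21 for Rpl22l1 (positive without M12), from -0.22 to 0.11 for Rpsa (positive without M15) and from -0.24 to 0.0099 for Rps27l (positive without M15). The cause was not tested.

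No paired analysis was possible because the columns carry no replicate number. Groups of 3 limit the precision: the SE of a member was 0.18 at the median for LbNOX after ethanol, so differences of the size seen, -0.32, were mostly not called. Low counts limit Rpl3l and Rpl37. The median of all genes lay between 0.0016 and 0.0074 over the 5 comparisons with TMM scaling, and between -0.017 and 0.019 with quantile normalization.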

Other observations

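In luciferase livers ethanol also moved a few genes of the related lists. Of 19 proteasome core subunits 3 were lower after ethanol, where 7.75% of all genes were called in either direction: Psmb8 (-0.57, adjusted p = 0.0136) and Psmb10 (-0.76, adjusted p = 0.0289), both known as subunits of the immunoproteasome, and Psma1 (-0.48, adjusted p = 0.0255). The calls of all 3 were lost without M10 and when only the groups compared were fitted. That of Psma1 was also lost without M1, and that of Psmb10 when any 1 of M1, M2, M3 and M11 was left out. Eif2b3 rose (0.85, adjusted p = 0.00480), and so did Nmd3, the export adaptor of the large subunit (0.43, adjusted p = 0.0346), whose call was lost when any 1 of M2, M3, M5, M6, M10, M11 and M12 was left out, and when only the groups compared were fitted. Ddit4, an inhibitor of mTORC1 induced by stress, had the largest of the 6 differences called by limma among the regulators: it was at 280.1 to 419.9 normalized counts after water and at 916, 1289.8 and 1011 after ethanol (1.65, SE 0.18, adjusted p = 0.000108). With LbNOX, Ddit4 was at 372.9 to 419.5 after water and at 849.6, 493.7 and 506.6 after ethanol, without overlap, but limma did not call it there. Cox7a1, a subunit of cytochrome c oxidase found mainly in muscle, was listed at 0 in all 3 luciferase ethanol libraries, at 5.45 to 41.0 after water in the same construct, and at 26.3, 26.6 and 0 after ethanol with LbNOX. Its call (adjusted p = 0.0290) was lost with a pseudocount of 5 and when any 1 of M1, M5, M10, M11 and M12 was left out.

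Among the 11 lists of markers, 1 gene was called by limma in any comparison: Nkg7, a granule protein of cytotoxic lymphocytes, was lower after ethanol in luciferase livers (-2.36, adjusted p = 0.0486), at 13 to 48.2 after water and at 4.84, 0 and 13.7 after ethanol, groups that overlap. EdgeR did not call it. The 4 nuclear noncoding RNAs of the quality list had no entry under their symbols among the deposited normalized counts, so that list could not be used.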
